A study of Homo sapiens with 33 samples.

Results

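The keratins, the cytoplasmic intermediate filament proteins of epithelial cells, were followed at the RNA level through platinum-sensitive and platinum-resistant high-grade serous ovarian cancer (HGSOC) cell lines. The members were all genes of the count table whose symbol is KRT followed by a number and, for some, a letter A to C, with keratin pseudogenes and keratin-associated proteins left out, which gave 55 of 29744 genes. RNA-sequencing covered 33 libraries, 3 from each of 11 cell lines that belong to 4 families. OVCAR3 and OVCAR4 are sensitive lines, and OVCAR3 ResA, OVCAR3 ResB, OVCAR4 ResA and OVCAR4 ResB are derivatives obtained by pulses of cisplatin, with A and B selected independently. PEA1 (sensitive) and PEA2 (resistant) came from a single patient, as did PEO1 (sensitive) and PEO4 and PEO6 (both resistant). The labels give the line and the replicate number, the roles of the lines come from the study's text, and neither says whether replicates were separate cultures, so that p-values measure the spread between these libraries only.

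Keratins form filaments as pairs of an acidic type I and a basic type II protein, so that a cell needs at least one gene of each type. Simple epithelia, the tissue type of most ovarian carcinomas, use KRT8 and KRT18 as their basic pair, joined by KRT7 and KRT19, and by KRT20 in the gut. The basal layer of stratified epithelia uses KRT5 with KRT14, and often KRT15 or KRT17, while other members mark suprabasal layers, mucosa, or the hair shaft and its inner root sheath. Pathologists use KRT7 positivity to recognise ovarian carcinoma, and KRT5 and KRT17 to recognise basal-type cells.

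The 55 members comprised 5 simple-epithelial, 4 basal, 17 suprabasal or other stratified, 9 inner root sheath and 17 hair keratins and 3 others. They lie in 2 clusters, 28 on chromosome 17 and 27 on chromosome 12, and KRT18 is a type I gene that sits in the chromosome 12 cluster. In GRCh38 coordinates from RefSeq, KRT80 (chr12:52168996-52192014), KRT7 (chr12:52233243-52255853), KRT86 (chr12:52274645-52309163), KRT81 (chr12:52285913-52291534) and KRT83 (chr12:52314301-52321398) follow each other, and KRT81 lies inside the span of KRT86. KRT8 (chr12:52897191-52949860) overlaps KRT18 (chr12:52948855-52952906) at one end. The strand setting of the counting was not given in the sources used here, so reads from these overlaps cannot be assigned with certainty.

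The 250 bases before the start are given for the mucosal keratin KRT4 and the basal keratin KRT5, which moved together in OVCAR3 ResA and apart in PEO4, and for KRT10, which was not called in any of the 7 resistant and sensitive pairs. All run 5′ to 3′ on the minus strand of GRCh38.p14 (RefSeq), and capitals mark matches on either strand to 6 short motifs. These were the TATA box (TATAAA), then the GC box, searched as GGGCGG, then the AP-1 site, searched as TGANTCA, then the AP-2 site, searched as GCCNNNGGC, then the KLF site of Krüppel-like factors, searched as CACCC, and last the ETS core, searched as GGAAG.
KRT4, chr12:52814117-52814366: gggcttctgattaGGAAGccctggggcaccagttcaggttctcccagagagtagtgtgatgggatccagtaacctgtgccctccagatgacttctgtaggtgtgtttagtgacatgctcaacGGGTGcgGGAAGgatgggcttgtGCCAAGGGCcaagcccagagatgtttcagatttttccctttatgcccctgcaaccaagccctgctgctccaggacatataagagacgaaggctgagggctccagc
KRT5, chr12:52520395-52520644: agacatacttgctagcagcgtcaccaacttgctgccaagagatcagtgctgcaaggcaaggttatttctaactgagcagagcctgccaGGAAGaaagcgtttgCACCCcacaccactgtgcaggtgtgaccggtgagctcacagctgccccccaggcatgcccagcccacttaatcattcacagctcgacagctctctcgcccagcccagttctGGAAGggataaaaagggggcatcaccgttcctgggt
KRT10, chr17:40822615-40822864: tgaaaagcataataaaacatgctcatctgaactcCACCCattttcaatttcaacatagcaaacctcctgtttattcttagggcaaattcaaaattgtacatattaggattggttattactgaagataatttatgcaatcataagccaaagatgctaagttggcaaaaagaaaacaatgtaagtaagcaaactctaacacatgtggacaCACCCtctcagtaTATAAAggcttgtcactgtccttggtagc
KRT4 held an AP-2 match from 105 to 97 bases before the start, a KLF match and 2 ETS matches, KRT5 held 1 KLF and 2 ETS matches, and KRT10 held a TATA match from 29 to 24 bases before the start and 2 KLF matches. An upstream entry was found for 34 of the 55 members, and the first entry of each was used. The 35116 promoters set beside them include the keratins, and repeated entries of a gene were not removed from them. The TATA box was present in 20 of these 34 promoters against 10.7% of 35116 promoters in the table, the GC box in 4 against 42.6% and the AP-1 site in 0 against 6.57%. The AP-2 site was present in 5 against 19.8%, the KLF site in 26 against 54.7% and the ETS core in 12 against 65.1%. Some of these searches can match overlapping bases, and a match describes letters and not binding.

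The libraries held between 18.1 and 43.4 M estimated counts (median 30.6 M), and mitochondrial ribosomal RNA took 1.12% to 14.8% of them. That share was 10.6% ± 4.94 (SD, n = 3) in OVCAR4 against 4.44% ± 4.14 in OVCAR4 ResA and 5.98% ± 6.15 in OVCAR4 ResB, and its part in the OVCAR4 results was not tested. Levels are given in TPM, a share of transcripts in each library, which corrects for transcript length, and fold changes come from normalised counts. The 2 scales differ most in OVCAR4, where the median gene stood 0.53 (ResA) and 0.59 (ResB) higher on the log2 scale by TPM than in the parental line and -0.02 and -0.01 by normalised count. EPCAM, an epithelial surface marker, averaged 530 to 800 TPM in 10 lines and 14.0 TPM in PEA1, whereas PAX8, the Müllerian lineage factor, was present in all lines (30.1 to 203 TPM). The other serous carcinoma markers varied between lines. WT1 averaged 0.645 to 128 TPM, with 60.3 TPM in OVCAR3 and 2.09 TPM in OVCAR3 ResA. MUC16 averaged 0.0696 (PEA1) to 126 TPM, MSLN 0.564 to 272 TPM and SOX17 0 (PEO1 and PEO4) to 131 TPM. Among leukocyte markers, CD3E was at or near 0 throughout, PTPRC averaged at most 3.30 TPM and CD68 1.52 to 49.9 TPM.

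Keratin RNA was mostly simple-epithelial. Of the 55 members, 22 reached a mean of 1 TPM in at least 1 line and 33 did not, 18 of which never exceeded 3 counts in a library and 4 of which were at 0 throughout. Only KRT8, KRT18, KRT10 and KRT80 were above 5 TPM in all 11 lines. Summed over the class, simple-epithelial keratins reached 6183 TPM ± 963 in OVCAR3 and 337 TPM ± 20.4 in PEA1, the highest and lowest of the 11 lines. They made up between 72.5% ± 1.90 of keratin TPM in PEO1 and 96.7% ± 0.80 in OVCAR3, while the basal class made up at most 5.57% ± 0.38, in OVCAR4 ResA. KRT20 and KRT14 were at most at 4 and 5.22 counts in any library. In these bulk libraries, fewer cells with a keratin and less of its RNA per cell cannot be told apart.

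**Figure D1:**
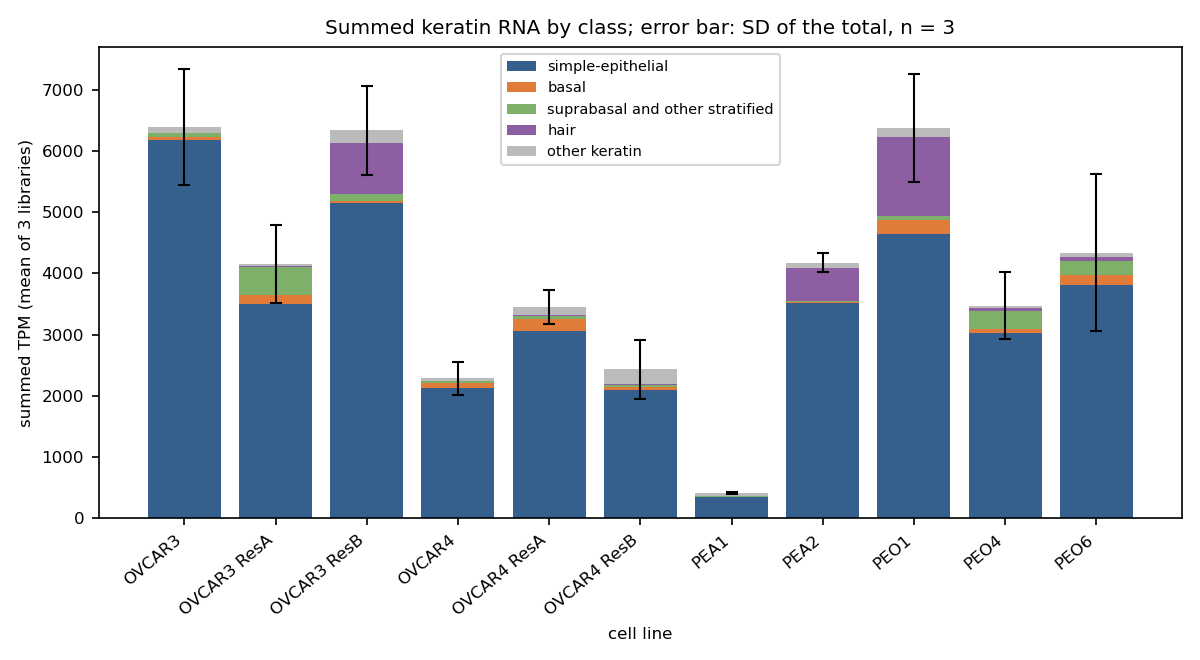
Summed TPM of keratin classes in each cell line (stacked bars, mean of 3 libraries; error bars, SD of the keratin total). Simple-epithelial keratins fill most of each bar, PEA1 has the lowest total (407 TPM), and hair keratins form a visible share in OVCAR3 ResB, PEA2 and PEO1 (the inner root sheath class, below 1 TPM for each gene, is not drawn).

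**Figure D2:**
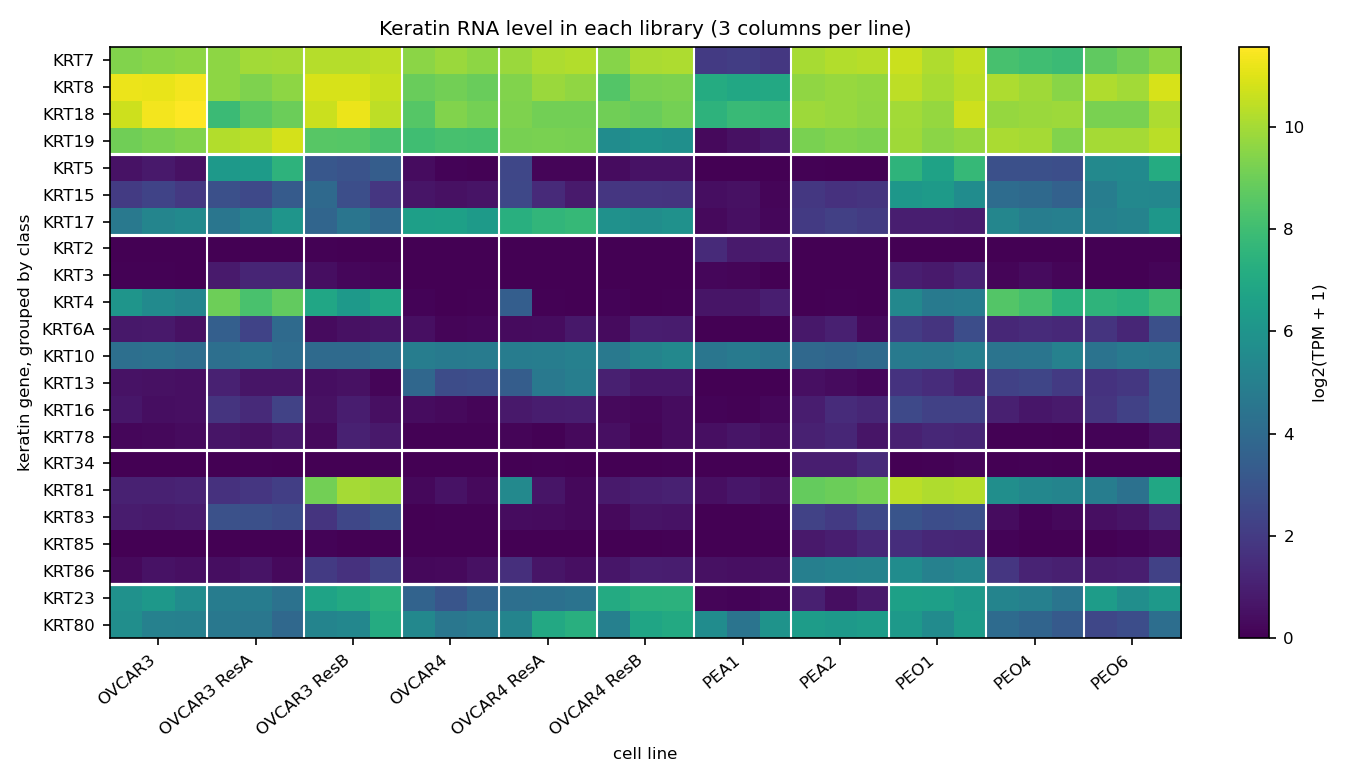
Level of the 22 keratins with a mean of at least 1 TPM in a line, as log2(TPM + 1), in each of 33 libraries (columns, 3 per line). KRT8, KRT18, KRT7 and KRT19 are high in 10 lines, KRT7 and KRT19 are low in PEA1, and KRT4, KRT5 and KRT81 stand out in OVCAR4 ResA replicate 1 alone among the libraries of that line.

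Replicate 1 of both resistant OVCAR4 lines stood apart from the other libraries of its line. OVCAR4 ResA replicate 1 held 10.0 TPM of KRT4, 4.54 TPM of KRT5 and 42.4 TPM of KRT81, where the other 2 libraries of the line held at most 0.0622, 0.115 and 0.555 TPM. Over all genes, 85 were at 5 TPM or more in this library and under 1 TPM in both others, a count that reached 89 in OVCAR4 ResB replicate 1 and had a median of 12.5 over the other 32 libraries. OVCAR4 ResB replicate 1 was lower than the other libraries of its line in KRT80 (31.9 against 112 and 131 TPM), KRT8 (353 against 607 and 630 TPM) and KRT7 (704 against 1097 and 1143 TPM). Results in OVCAR4 ResA and ResB are therefore also given without replicate 1.

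KRT8 and KRT18, the type II and type I partners of the simple filament, stood at similar levels within most lines. Mean KRT8 was 2441 TPM in OVCAR3, 501 TPM in OVCAR4, 128 TPM in PEA1 and 1239 TPM in PEO1, against 2424, 530, 206 and 1156 TPM of KRT18. Over the 11 lines the log2 levels of the pair ran together (Pearson r 0.92, Spearman rho 0.91), as a description of lines that share families. With all libraries, both genes of the pair were called lower in OVCAR3 ResA and in no other resistant line. Without replicate 1 both were also called lower in OVCAR4 ResB, where KRT8 was higher than in OVCAR4 by TPM.

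In OVCAR3 ResA the simple-epithelial pair fell, while KRT19 and the stratified keratins KRT4 and KRT5 rose. KRT18 was 1651, 2602 and 3020 TPM in the 3 OVCAR3 libraries and 237, 396 and 505 TPM in OVCAR3 ResA. All ResA libraries lay below all parental ones, and KRT18 fell by 2.84 ± 0.10 (SE) on the log2 scale, 7.14-fold (adjusted p = 2.72e-184, DESeq2). KRT8 was 2359, 2314 and 2651 TPM in OVCAR3 and 776, 642 and 777 TPM in ResA, a log2 fold change of -1.88 ± 0.10 (adjusted p = 5.52e-72). KRT19, the smallest keratin and a partner of KRT7 and KRT8, was 529, 609 and 670 TPM in OVCAR3 and 1197, 1335 and 1806 TPM in ResA, and rose by 1.10 ± 0.11 (adjusted p = 3.70e-24).

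KRT5, the basal type II keratin, was 0.468, 0.737 and 0.433 TPM in OVCAR3 and 74.3, 79.2 and 179 TPM in OVCAR3 ResA. The groups did not overlap, and the log2 fold change was 7.42 ± 0.57 (adjusted p = 3.15e-37). Its basal type I partner KRT14 did not follow, with at most 0.146 TPM in any library of the pair, and KRT17 was at 35.0 TPM ± 9.64 and 40.7 TPM ± 22.1 and was not called (log2 fold change 0.00 ± 0.16). KRT4, a type II keratin of mucosal epithelium, was 65.3, 44.8 and 37.1 TPM against 518, 300 and 442 TPM in ResA, a rise of 2.96 ± 0.14 (adjusted p = 1.27e-90), while its usual partner KRT13 stayed below 1.2 TPM. KRT6A, a keratin of wounded and hyperproliferative epithelium, rose from 0.626 TPM ± 0.168 to 9.65 TPM ± 5.44 (log2 fold change 3.64 ± 0.73, adjusted p = 3.32e-06), although KRT6A shares sequence with KRT6B and KRT6C. In all, 16 of 24 keratins tested passed the threshold in this pair, 12 higher and 4 lower, where 44.9% of all genes tested were called (22.0% higher and 22.9% lower), and without replicate 3 the count was 10. KRT7 was among them with a change of 0.24 ± 0.09 (adjusted p = 0.026) and overlapping libraries, a call lost in edgeR (adjusted p = 0.0812) and on leaving out any replicate (adjusted p = 0.088 to 0.219).

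In OVCAR3 ResB, selected from the same parent, neither gene of the simple-epithelial pair was called. Of 18 keratins tested 7 were called, 6 higher and 1 lower, against 7.67% of all genes, 4.10% higher and 3.57% lower (3 without replicate 1 or 2, and 8 without replicate 3), and none of the 4 simple-epithelial keratins tested passed. KRT18 was 1571, 2408 and 1379 TPM and KRT8 1875, 1832 and 1528 TPM in ResB, with log2 fold changes against OVCAR3 of -0.52 ± 0.39 (adjusted p = 0.61) and -0.59 ± 0.35 (adjusted p = 0.43). By TPM, all ResB libraries lay below all OVCAR3 libraries in KRT8, while the lines overlapped in KRT18. KRT7 (0.73 ± 0.33, adjusted p = 0.19) and KRT19 (-0.90 ± 0.36, adjusted p = 0.11) did not overlap between the lines but did not pass. KRT7 was called without replicate 3 (0.98, adjusted p = 0.000375), and both were called in the fit of all 33 libraries (adjusted p = 0.00126 for KRT7 and 0.00492 for KRT19). Compared directly, ResB stood above ResA in KRT18 by 2.32 ± 0.42 (adjusted p = 1.15e-06) and below it in KRT19 by a log2 fold change of -2.01 ± 0.39 (adjusted p = 6.77e-06), and KRT5 was 12.5-fold lower in ResB (adjusted p = 6.49e-18). In that comparison 12 of 20 keratins tested were called, 6 in each direction, with 13.5% of all genes called (7.47% higher and 6.04% lower).

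The main change in OVCAR3 ResB was in KRT81, a type II hair keratin. It was 1.06, 1.07 and 1.21 TPM in OVCAR3, 2.18, 2.53 and 3.39 TPM in ResA, and 546, 1025 and 896 TPM in ResB. Every ResB library was far above every other library of the family, with a log2 fold change of 9.37 ± 0.37 over OVCAR3 (adjusted p = 4.66e-135), and hair keratins then made up 13.0% ± 3.22 of keratin TPM. KRT5 also rose in ResB, to 7.84, 6.69 and 9.67 TPM (log2 fold change 3.80 ± 0.46, adjusted p = 3.65e-14). KRT17 (-1.20 ± 0.39, adjusted p = 0.034), KRT4 (0.93 ± 0.31, adjusted p = 0.039) and KRT23 (1.11 ± 0.33, adjusted p = 0.012) were called, but each lost the call in edgeR (adjusted p = 0.146, 0.116 and 0.083) and without replicate 1 (adjusted p = 0.172, 0.324 and 0.087).

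**Figure D3:**
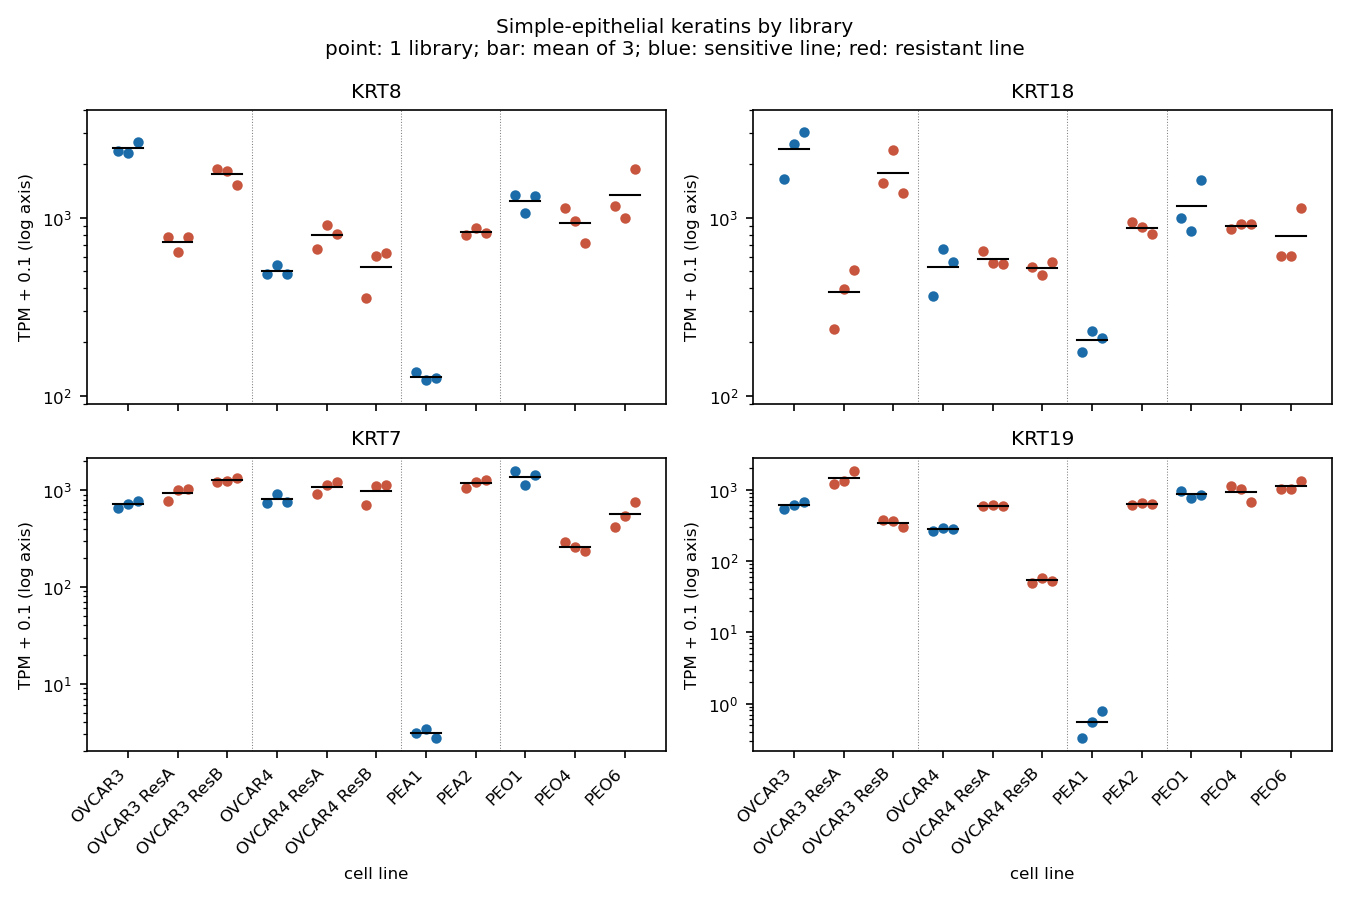
KRT8, KRT18, KRT7 and KRT19 in TPM plus 0.1 on a log axis (points, libraries; bars, means of 3; blue, sensitive lines; red, resistant lines; dotted lines separate families). OVCAR3 ResA lies below OVCAR3 for KRT8 and KRT18, OVCAR4 ResB lies near 53 TPM of KRT19, and PEA1 lies near 3 TPM of KRT7 and below 1 TPM of KRT19.

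In the OVCAR4 family the changes fell on single members, and ResA and ResB differed from each other. KRT19 was 261, 294 and 279 TPM in OVCAR4, 582, 606 and 591 TPM in ResA and 49.0, 57.6 and 53.0 TPM in ResB. The 3 lines did not overlap by TPM, a scale on which the median gene was 0.53 (log2) higher in ResA than in OVCAR4. With all libraries, neither KRT19 nor KRT17 was called in ResA against the parent. In ResB, KRT19 fell by 2.96 ± 0.34 on the log2 scale against the parent (adjusted p = 1.75e-16) and by 3.52 ± 0.08 against ResA. KRT23, a type I keratin outside the simple and stratified pairs, rose in ResB from 10.4 TPM ± 2.59 to 158 TPM ± 21.2 (log2 fold change 3.48 ± 0.32, adjusted p = 1.22e-24), and the mucosal keratin KRT13 fell by 3.91 ± 0.44 (adjusted p = 1.83e-16). OVCAR4 ResB had 6 of 18 keratins called, 3 in each direction, against 17.9% of all genes, 9.09% higher and 8.77% lower (3 without replicate 2 or 3, and 9 without replicate 1). Over all genes, 2853 were called with all libraries, 7241 without replicate 1, 764 without replicate 2 and 631 without replicate 3. KRT8, KRT18 and KRT7 were not called with all libraries (log2 fold changes -0.54, -0.56 and -0.32). Without replicate 1, the library that stood apart and its numbered partner in OVCAR4, all were called lower (KRT8 by -0.58, adjusted p = 0.000463, KRT18 by -1.08, adjusted p = 2.13e-09, and KRT7 by -0.44, adjusted p = 0.0139). TPM in the same libraries did not show all these falls. KRT8 was 541 and 484 TPM in OVCAR4 and 607 and 630 TPM in ResB, and KRT7 914 and 765 TPM against 1097 and 1143 TPM. KRT18 was 663 and 563 TPM against 478 and 564 TPM. KRT17, the basal keratin most abundant in this family, was 91.2, 93.0 and 77.4 TPM in OVCAR4, 156, 194 and 216 TPM in ResA and 55.9, 49.7 and 56.1 TPM in ResB. Its fall in ResB (-1.26 ± 0.35, adjusted p = 0.00393) was lost in edgeR (adjusted p = 0.062) and without replicate 2 or 3 (adjusted p = 0.332 and 0.270), and KRT15, called at 1.61 ± 0.59, was lost without any one replicate (adjusted p = 0.127 to 0.540). Between the resistant lines, ResB was below ResA in KRT17 by a log2 fold change of -1.83 ± 0.15 (adjusted p = 3.25e-31), one of 8 keratins called of 19 tested, 2 higher and 6 lower, with 32.8% of all genes called (16.2% higher and 16.5% lower).

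LUM, a fibroblast proteoglycan, averaged 17.7 TPM in OVCAR4 ResA, 1.54 TPM in OVCAR4 and 0 TPM in ResB. The other fibroblast markers did not follow it. COL1A1 averaged 3.81 TPM in OVCAR4 ResA, 2.60 TPM in OVCAR4 and 4.97 TPM in ResB. DCN averaged at most 0.0483 TPM and PDGFRA at most 0.0354 TPM in these lines. The part of these markers in the results was not tested.

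No keratin of 16 tested was called in OVCAR4 ResA against OVCAR4 by DESeq2, where 11.9% of all genes were (6.68% higher and 5.22% lower). At an unadjusted p under 0.05 there were 3, KRT17, KRT4 and KRT80, and edgeR also called 0. With no replicate block 2 keratins were called, and 3462 of all genes against 1784 with the block. Without replicate 1, the library described above and its numbered partner, 5 were called: KRT80 (log2 fold change 1.75 ± 0.18, adjusted p = 2.81e-20), KRT13 (1.51 ± 0.29), KRT17 (0.50 ± 0.20), KRT18 (-0.91 ± 0.18, adjusted p = 2.40e-06) and KRT10 (-0.56 ± 0.22). Calls over all genes rose as well, from 1784 to 6221. By TPM, KRT18 was then 663 and 563 in OVCAR4 against 556 and 548 in ResA, and KRT10 25.0 and 27.2 against 28.6 and 31.5. A fit of all 33 libraries called 7 keratins and 4559 of all genes. KRT4, KRT5 and KRT81, the genes high in replicate 1 alone, were among the 7.

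PEA2 differed from PEA1 in nearly its whole keratin set. KRT7 was 2.96, 3.26 and 2.63 TPM in PEA1 and 1056, 1216 and 1287 TPM in PEA2. KRT19 was 0.228, 0.452 and 0.696 TPM in PEA1 and 603, 653 and 621 TPM in PEA2. Neither gene overlapped between the lines, with log2 fold changes of 8.61 ± 0.26 for KRT7 (adjusted p = 1.14e-239) and 10.61 ± 0.37 for KRT19 (adjusted p = 7.73e-178). The pair KRT8 and KRT18, by contrast, was already present in PEA1 at 128 TPM ± 7.36 and 206 TPM ± 27.5, and rose 7.04-fold and 4.69-fold (log2 fold changes 2.82 ± 0.22 and 2.23 ± 0.23).

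KRT81 rose in PEA2 from 0.463 TPM ± 0.121 to 509 TPM ± 63.1 (log2 fold change 10.22 ± 0.34, adjusted p = 7.18e-194), and KRT86, a second type II hair keratin, rose from 0.420 TPM ± 0.0156 to 33.6 TPM ± 2.14 (6.44 ± 0.34). KRT83, another hair keratin, was at 3 counts or fewer in each PEA1 library, which puts it at least 40.5-fold higher in PEA2. Basal keratins stayed low in both lines: KRT5 was at 0 in PEA1 and at most 0.0517 TPM in PEA2, and KRT17 rose from 0.254 TPM ± 0.132 to 3.20 TPM ± 0.346 (3.81 ± 0.61). Of 22 keratins tested 18 were called, 16 higher and 2 lower, against 47.0% of all genes (23.3% higher and 23.8% lower). The 2 lower were KRT4, at least 8.31-fold, and KRT2, a suprabasal epidermal keratin, at least 14.3-fold, both scarce in PEA1 (0.705 and 1.06 TPM).

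Other epithelial genes moved in the same pair, in which 23.3% of all genes were called higher and 23.8% lower. VIM, the intermediate filament protein of mesenchymal cells, fell from 4120 TPM in PEA1 to 220 TPM in PEA2 (log2 fold change -4.10 ± 0.24), and 5 of 6 non-keratin intermediate filament genes tested were lower and 0 higher. Of 10 epithelial transcription factors 10 were called higher, including EHF, at 0 in PEA1 and 194 TPM in PEA2, ELF3 (1.54 ± 0.22) and KLF5 (1.24 ± 0.24). Of 11 plakins and desmosome proteins, which tie keratin filaments to cell junctions, 7 were higher and 0 lower, including JUP (3.04 ± 0.24) and DSP (2.56 ± 0.29). COL1A1, a fibroblast collagen, was 88.4 TPM in PEA1 and 0.879 TPM in PEA2, while the fibroblast markers DCN, LUM and PDGFRA were under 0.2 TPM in both, so that the summed fibroblast list was 88.6 TPM against 0.890 TPM. Of the leukocyte markers, CD68 was 18.7 TPM in PEA1 and 49.9 TPM in PEA2, PTPRC was at 0 and 3.30 TPM and CD3E at 0 in both, so that the summed list was 18.7 TPM against 53.2 TPM. Of the endothelial markers, CDH5 was at 0 and 7.02 TPM, while PECAM1 (0.0572 and 0.287 TPM) and VWF (0.0111 and 0.0649 TPM) were low, and the summed list was 0.0683 TPM against 7.37 TPM. Whether cells of another kind took part in these values was not tested.

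VIM ranged from 0.612 TPM in OVCAR3 ResA to 384 TPM in PEO1 among the other lines. Of 10 epithelial transcription factors, 6 were called in OVCAR3 ResA (44.9% of all genes called), 2 in OVCAR3 ResB (7.67%), 3 in OVCAR4 ResA (11.9%), 3 in OVCAR4 ResB (17.9%), 4 in PEO4 (33.3%) and 5 in PEO6 (41.4%), in both directions in all but OVCAR4 ResA, where the 3 were higher. Of 10 squamous differentiation genes, 5 of 5 tested were called in OVCAR3 ResA, 3 higher and 2 lower, where 22.0% of all genes were called higher and 22.9% lower, although TP63, the basal lineage factor, was at most 0.892 TPM on average in any line.

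In PEO4 and PEO6 the basal keratins separated from each other. KRT17 was 0.989, 0.937 and 0.864 TPM in PEO1, 38.7, 29.0 and 31.1 TPM in PEO4 and 31.8, 35.3 and 67.9 TPM in PEO6. Both resistant lines lay wholly above PEO1, by 5.18 ± 0.28 (adjusted p = 5.56e-74) and 5.50 ± 0.33 (adjusted p = 6.50e-61) on the log2 scale. KRT5 went the other way, with 182, 101 and 211 TPM in PEO1, 6.12, 6.16 and 5.95 TPM in PEO4 and 42.4, 45.5 and 137 TPM in PEO6. It fell by 4.66 ± 0.20 in PEO4 (adjusted p = 1.25e-120) and by 1.31 ± 0.26 in PEO6 (adjusted p = 2.58e-06), where one PEO6 library overlapped PEO1 and the call was lost in the fit of all 33 libraries (-1.13, adjusted p = 0.332). It stood 3.34 ± 0.34 higher in PEO6 than in PEO4 (adjusted p = 2.87e-20). KRT15, which accompanies KRT5 in basal cells, went from 64.9 TPM ± 15.0 to 13.8 TPM ± 2.58 in PEO4 (-2.15 ± 0.20, adjusted p = 3.60e-25) and 36.7 TPM ± 6.69 in PEO6 (-0.80 ± 0.24, adjusted p = 0.00329), the latter lost without replicate 1 or 2 (adjusted p = 0.068 and 0.136). The 2 PEO comparisons share the PEO1 libraries.

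KRT7 fell in both resistant PEO lines while the other simple keratins moved little. It was 1570, 1146 and 1438 TPM in PEO1, 290, 257 and 235 TPM in PEO4 and 421, 541 and 762 TPM in PEO6. Neither resistant line overlapped PEO1, with falls of 2.37 ± 0.16 (adjusted p = 3.67e-50) and 1.32 ± 0.22 (adjusted p = 4.13e-08). KRT8 (-0.39 ± 0.16, adjusted p = 0.053) and KRT19 (0.13 ± 0.16, adjusted p = 0.60) were not called in PEO4, and KRT18 was called in PEO6 (-0.58 ± 0.20, adjusted p = 0.013) with overlapping libraries and a call lost in edgeR (adjusted p = 0.0525). PEO4 had 17 of 23 keratins called, 3 higher and 14 lower, against 33.3% of all genes (16.6% higher and 16.7% lower), and PEO6 had 15 of 22, 2 higher and 13 lower, against 41.4% (21.2% higher and 20.3% lower). Between PEO6 and PEO4, 5 of 20 were called, all higher in PEO6, against 18.2% of all genes (9.86% higher and 8.33% lower), a count that was 2 without replicate 2 and 8 without replicate 3.

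KRT81 was again the hair keratin with most RNA, here high in the sensitive line. It was 1307, 1152 and 1257 TPM in PEO1, 51.6, 40.4 and 36.5 TPM in PEO4 and 28.6, 18.6 and 119 TPM in PEO6. All resistant libraries lay below all PEO1 libraries, with log2 fold changes of -4.83 ± 0.16 (adjusted p = 2.15e-185) and -5.00 ± 0.71 (adjusted p = 2.78e-11). KRT86 fell by 4.67 ± 0.24 and 4.76 ± 0.36, and KRT83 by 4.95 ± 0.52 and 3.09 ± 0.46. The mucosal keratin KRT4 rose from 41.2, 26.4 and 27.5 TPM to 354, 287 and 168 TPM in PEO4 and 182, 159 and 241 TPM in PEO6 (3.09 ± 0.17 and 2.60 ± 0.23). KRT80, a widely expressed type II keratin that was above 5 TPM in all lines, fell by 2.41 ± 0.21 and 3.09 ± 0.28.

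**Figure D4:**
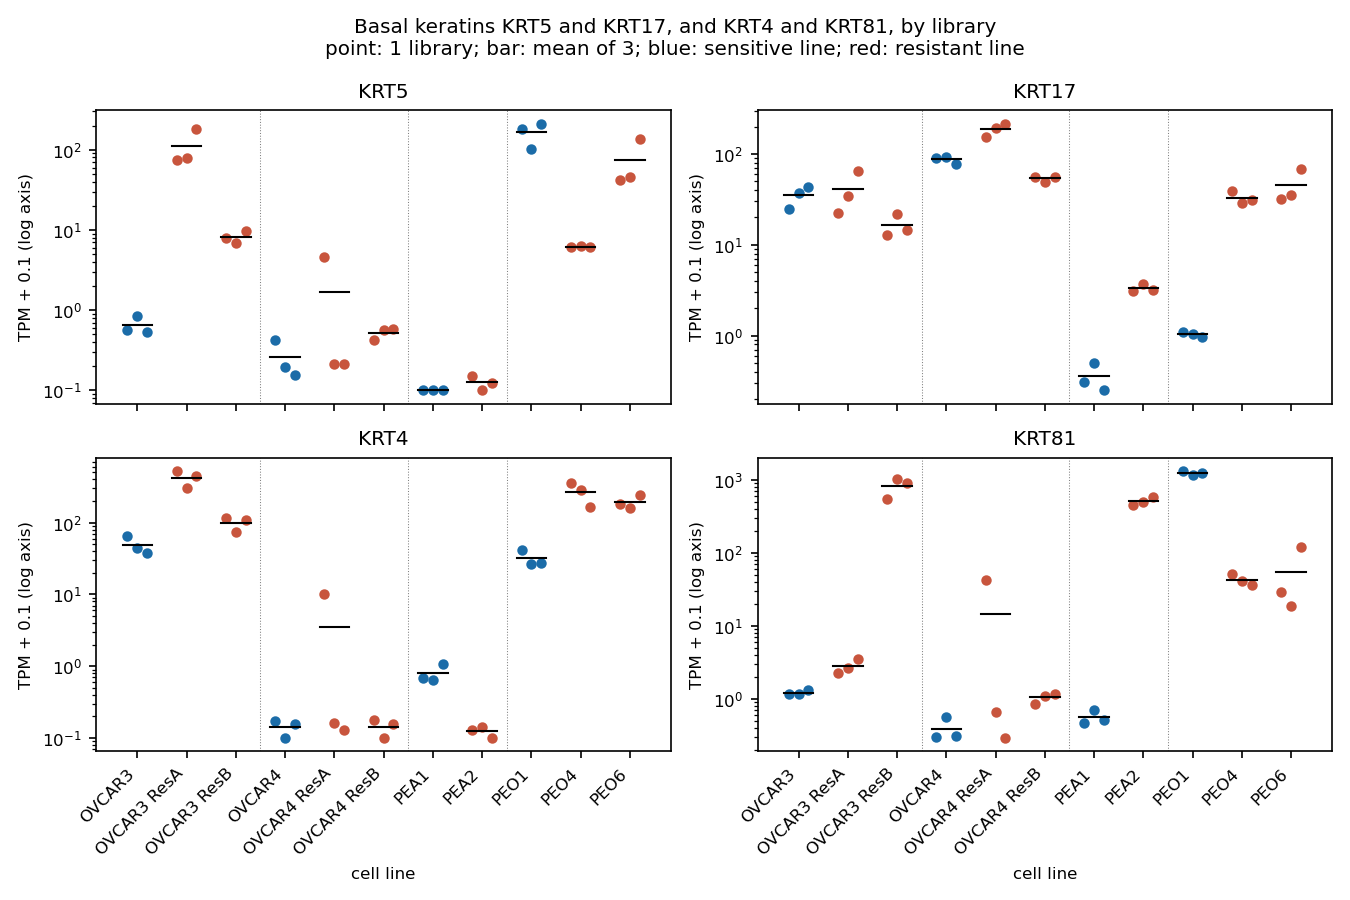
KRT5, KRT17, KRT4 and KRT81 in TPM plus 0.1 on a log axis (points, libraries; bars, means of 3; blue, sensitive lines; red, resistant lines; dotted lines separate families). KRT5 rises in OVCAR3 ResA and falls in PEO4, KRT17 rises in PEO4 and PEO6, KRT81 is above 400 TPM in OVCAR3 ResB, PEA2 and PEO1, and 1 OVCAR4 ResA library is apart for KRT4, KRT5 and KRT81.

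The hair keratins KRT81 and KRT86 share sequence, which bears on their split. Of the 50-base words of its transcripts, KRT81 shared 38.4% with KRT86, KRT86 shared 30.4% with KRT81, and KRT83 shared 6.41% with KRT81. The share of KRT86 in the summed TPM of the pair was 6.22% ± 0.36 in PEA2, 3.12% ± 0.38 in PEO1 and 0.384% ± 0.161 in OVCAR3 ResB, the 3 lines with high KRT81. With near-identical copies summed before testing, the number of keratins called stayed within 1.5 times of the main count in all 10 comparisons. Summing merges the copies, so this count does not test how reads were split among them.

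**Figure D5:**
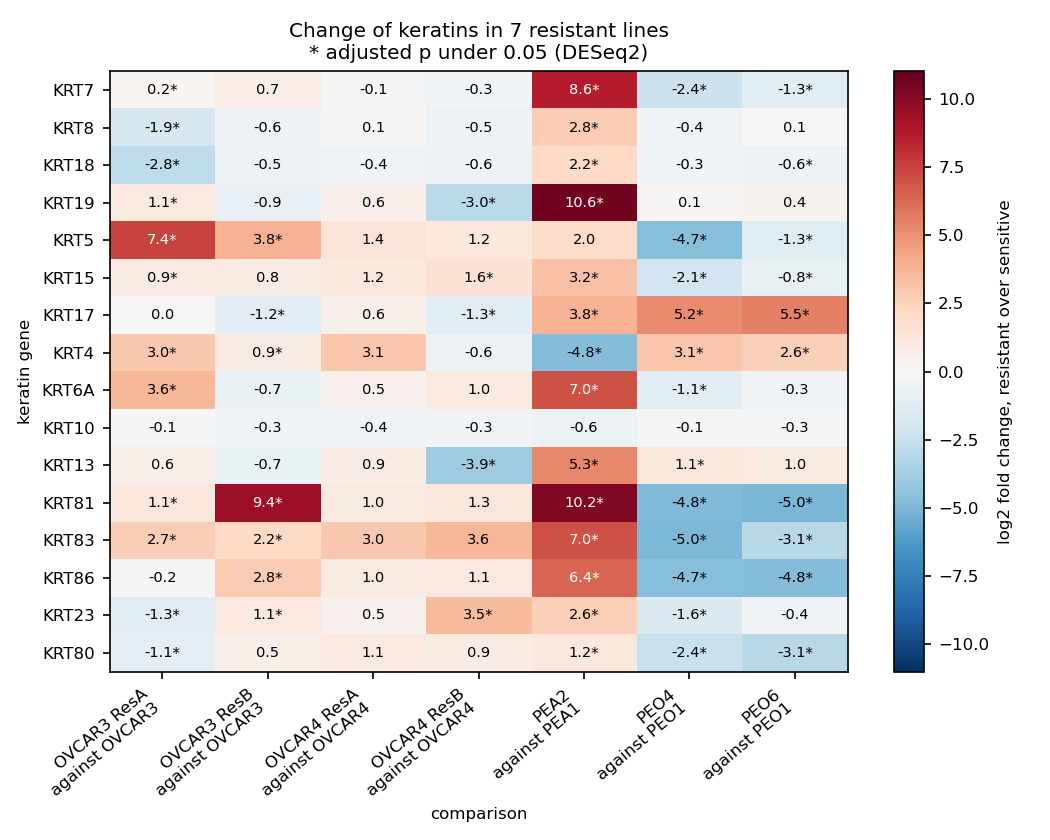
Log2 fold change (resistant over sensitive, DESeq2) of the 16 keratins that reached a mean of 5 TPM in a line, for the 7 pairs; asterisks mark an adjusted p under 0.05. PEA2 is mostly red and the PEO pairs mostly blue, KRT10 carries no asterisk, and fitted values of genes at 3 counts or fewer in one line (KRT13, KRT6A and KRT83 in PEA1) depend on the model.

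The median log2 fold change of the keratins tested was 1.11 in OVCAR3 ResA, 0.63 in OVCAR3 ResB, 0.72 in OVCAR4 ResA, 0.95 in OVCAR4 ResB, 3.51 in PEA2, -2.30 in PEO4 and -1.06 in PEO6. Normalisation of the counts holds the median of all genes near 0 (-0.02 to 0.02), so it is no independent comparator. Some keratins were tested only through the line where they are high, such as KRT83 in PEA2. In OVCAR4 ResA no keratin was called, and KRT4, KRT5 and KRT81 were high in replicate 1 alone.

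No keratin was called in one direction in all 7 pairs, which follows from OVCAR4 ResA, where none was called. A test of whether the 7 changes were equal called 19 of 27 keratins in DESeq2 and 23 of 24 in edgeR, where it called 70.2% and 72.1% of all genes. KRT10 was not among those called (adjusted p = 0.554 in the DESeq2 likelihood-ratio test and 0.474 in edgeR). With counts summed by line, its log2 fold change was -0.31 ± 0.16 (adjusted p = 0.858, DESeq2). By calls with all libraries, KRT4 rose in 4 pairs and fell in 1, KRT81, KRT83, KRT17 and KRT15 rose in 3 and fell in 2, KRT5 and KRT7 rose in 2 and fell in 2, and KRT8 rose in 1 and fell in 1. Some of these calls were lost in alternatives, as given above for single pairs. In OVCAR3 ResA, KRT81 was also lost without any one replicate (adjusted p = 0.106 to 0.233, DESeq2). KRT15 was lost there without replicate 1 or 3 (adjusted p = 0.123 and 0.305). When counts were summed by line and all 7 resistant lines were compared with the 4 sensitive ones, with the family in the model, 0 keratins passed in DESeq2 or edgeR, where 0.286% of all genes passed in DESeq2 (0.130% higher and 0.156% lower). At an unadjusted p under 0.05 there were 2, KRT4 (log2 fold change 2.24 ± 1.07, adjusted p = 0.75) and KRT81 (4.12 ± 1.77, adjusted p = 0.62). Without the PEO family 3 were called higher in resistant lines, KRT81 (7.08 ± 1.71, adjusted p = 0.00771), KRT83 (3.77 ± 0.81) and KRT15 (1.69 ± 0.47). That fit called 199 of all genes, against 68 with all families. In OVCAR4 ResA, replicate 1 held 1262 counts of KRT81 and the others 15.7 and 5.54. For KRT15 these were 143, 46 and 23.0, and for KRT83 9.13, 7.33 and 5.24. No fit without both the PEO family and replicate 1 was run.

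Keratins of one class did not move as a block over the 11 lines. Log2 levels of the basal keratins KRT5 and KRT15 ran together (r 0.86, rho 0.90) while those of KRT5 and KRT17 did not (r -0.07, rho 0.04), and KRT7 with KRT19 gave r 0.83 but rho 0.03, PEA1 being far below the other lines in both. KRT4 and its mucosal partner KRT13 gave r -0.05 and rho 0.15. These are descriptions over 11 lines that share 4 families.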

How the data were processed

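RNA-sequencing of total RNA (KAPA mRNA HyperPrep) from 11 cell lines, 3 libraries each, had been run by the authors through the nf-core/rnaseq pipeline on GRCh38 and summarised per gene with salmon. The deposited estimated counts (88.4% of them whole) came from that pipeline of the authors without normalisation. The deposited TPM values had been scaled by the authors' pipeline for transcript length and to the same total in each library. The labels also name DRAGEN; the salmon version, annotation release and strand setting were not given in the sources used here. Counts were rounded to whole numbers and tested per pair with DESeq2 1.42.0 (R 4.3.3; Wald test, replicate number and line in the model, Benjamini-Hochberg over all genes tested, threshold 0.05), for 7 resistant against sensitive pairs and 3 pairs of resistant lines. Counts summed by line were tested with the family as covariate. A likelihood-ratio test asked whether the 7 changes were equal, with edgeR 4.0.16 beside it. Alternatives were edgeR, no replicate block, TMM, a filter of 10 counts in 3 libraries, all 33 libraries in one fit, limma 3.58.1 on log2(TPM + 1) or log2(TPM + 0.1), omission of each replicate or family, and summing near-identical copies. Every simple-epithelial and basal keratin was named; other keratins were named at a mean of 5 TPM in a line, or when called at a mean normalised count over or equal to 50, at most 10 per comparison, and from the accompanying gene lists at most 3 genes per list by mean TPM, other genes being named as markers or after their values were seen. The members and lists were chosen with earlier results of these data known. "At least" folds set a group at or below 3 counts in each library to 3 counts per library. The fits were tested on simulated data with 200 changed genes. The DESeq2 fit of a pair recovered 54% of 2-fold and 100% of 4-fold changes, and 4.35% of its calls were false. The DESeq2 fit of counts summed by line recovered 100% of both, and 7.83% of its calls were false, above the threshold. Libraries held 18.1 to 43.4 M estimated counts, so keratins with only a few counts are imprecise. Deviations of libraries with the same number correlated above 0.1 for all 3 numbers in 2 comparisons, of OVCAR3 with its ResA line (0.63, 0.20 and 0.42) and of OVCAR4 ResA with ResB (0.68, 0.47 and 0.51), and not in the other 8. All 3 were below 0 for OVCAR4 with ResA (-0.40, -0.31 and -0.07) and with ResB (-0.42, -0.32 and -0.03). The same held for PEO6 with PEO4 (-0.24, -0.12 and -0.38). The number was kept in every model because the study's model included it.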

Additional observations from a re-analysis of the deposited data

Results flagged for a closer look

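The resistant-against-sensitive change differed among the 7 pairs for 7 simple-epithelial and basal keratins by a test of the difference itself. Adjusted p-values from the DESeq2 likelihood-ratio test were 9.44e-254 for KRT7, 7.89e-181 for KRT19, 2.58e-44 for KRT8, 1.50e-16 for KRT18, 1.59e-38 for KRT17, 2.80e-13 for KRT5 and 5.93e-09 for KRT15. The edgeR quasi-likelihood test gave 2.83e-16 for KRT7, 2.37e-15 for KRT19, 5.09e-10 for KRT8, 9.69e-07 for KRT18, 7.47e-10 for KRT17, 3.88e-07 for KRT5 and 8.68e-05 for KRT15. In simulation the DESeq2 test made more false calls than its threshold and edgeR did not. Of all keratins tested, DESeq2 called 19 of 27 and edgeR 23 of 24, where 70.2% and 72.1% of all genes tested were called, so a difference among pairs was common in these lines. The 7 pairs share sensitive lines within the OVCAR3, OVCAR4 and PEO families.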

How the results depend on the processing

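Counts of keratins called moved by more than 1.5 times as follows. In edgeR they were 4 (OVCAR3 ResB) and 3 (OVCAR4 ResB). With limma on log2(TPM + 1), filtered, they were 2 (OVCAR3 ResB), 3 (OVCAR4 ResB), 7 (OVCAR3 ResB against ResA), 5 (OVCAR4 ResB against ResA) and 2 (PEO6 against PEO4), and on log2(TPM + 0.1) 3 (OVCAR3 ResB), 4 (OVCAR4 ResB against ResA) and 2 (PEO6 against PEO4). With limma and no filter they were 8 (OVCAR3 ResA), 0 (OVCAR3 ResB), 1 (OVCAR4 ResB), 8 (PEA2), 7 (PEO4), 1 (PEO6), 0 (OVCAR3 ResB against ResA), 2 (OVCAR4 ResB against ResA) and 0 (PEO6 against PEO4). OVCAR4 ResA, at 0, had 2 with no replicate block and 7 in the fit of all 33 libraries. Calls over all genes in that pair were 3462 and 4559, against 1784 in the main fit. Leaving out a replicate gave 10 to 12 in OVCAR3 ResA, 3 to 8 in OVCAR3 ResB, 0 to 5 in OVCAR4 ResA, 3 to 9 in OVCAR4 ResB and 2 to 8 in PEO6 against PEO4. Calls over all genes then ran from 292 to 6221 in OVCAR4 ResA and from 631 to 7241 in OVCAR4 ResB. Resistant against sensitive lines had 3 without the PEO family. The cause was not tested.

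Signs turned only for results that were not called (log2 fold changes). In OVCAR3 ResA, KRT17 was -0.0115 in edgeR and -0.00939 with the low-count filter and ran from -0.25 to 0.153 with one replicate left out, and KRT10 was 0.0355 in limma on log2(TPM + 1), filtered or not, and 0.0372 on log2(TPM + 0.1). In OVCAR3 ResB, KRT18 ran from -0.837 to 0.0402 with one replicate left out. In OVCAR4 ResA, limma gave KRT10 0.12, KRT18 0.18 and KRT7 0.42 in all 3 forms, and with one replicate left out KRT5 ran from -0.11 to 2.45, KRT7 from -0.278 to 0.0784 and KRT8 from -0.0237 to 0.191. In OVCAR4 ResB, limma gave KRT10 0.30, KRT7 0.25, KRT18 0.0220 (0.0221 on log2(TPM + 0.1)) and KRT8 0.0344. With one replicate left out, KRT10 ran from -0.341 to 0.0404 in PEO4 and from -0.355 to 0.19 in PEO6 against PEO4, KRT8 from -0.15 to 0.214 in PEO6 and KRT15 from -0.819 to 0.91 in OVCAR3 ResB against ResA. Without the replicate block, KRT15 was 0.18 in OVCAR3 ResB against ResA, and KRT15 was -0.0456 and KRT5 -2.18 in OVCAR4 ResB against ResA. In the latter KRT5 was also -0.53 in edgeR, -1.85 in the fit of all 33 libraries and -0.42 and -0.21 in limma, and with one replicate left out KRT5 ran from -1.08 to 1.97 and KRT15 from -0.14 to 1.05.

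Of 2034 alternatives over 173 gene-by-comparison results, 1681 kept direction and side of the threshold, 282 lost the call, 24 gained one and 47 turned sign, and 94 results kept direction and side in every alternative, limma without a filter set aside. In 6 alternatives no adjusted p was given. Of these, 4 have no verdict (KRT13 in PEA2, KRT5 in OVCAR4 ResA with no replicate block) and 2 are counted by sign among the 47 (KRT5 in OVCAR4 ResA without replicate 1, and in OVCAR4 ResB against ResA with no replicate block). Rescaling TPM without mitochondrial and ribosomal RNA moved 7 of 22 class sums by more than 1 SD, and 88 other alternatives of these sums (pseudogenes added, or a replicate left out) stayed within it. Where the numbers paired the libraries, leaving out the replicate block gave 15 instead of 16 keratins called in OVCAR3 ResA and 7 instead of 8 in OVCAR4 ResB against ResA. Depth limits keratins with few counts, where a difference was not detectable.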
